A study of Mus musculus with 6 samples.

Results

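The 9 genes described here encode the vascular endothelial growth factor (VEGF) ligands Vegfa, Vegfb, Vegfc and Pgf and the VEGF receptors Flt1, Kdr, Flt4, Nrp1 and Nrp2. They were taken by symbol, 9 of the 34099 genes counted, and their unique molecular identifiers (UMIs, each standing for 1 captured transcript) were summed per mouse over each annotated cell type and cluster. The cells came from orthotopic liver tumors of H22, a murine hepatocellular carcinoma line, in male wild type C57BL/6J mice obtained at 8 weeks of age. 3 control mice received no stressors, 3 stress mice went through chronic unpredictable mild stress, and both were given the same tumor cells. One 10x Genomics library was made per mouse, so every comparison of groups has n = 3 against n = 3. H22 is 1 transplanted line passaged as ascites and pooled before implantation, so the tumor cells of all mice share 1 origin.

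VEGF ligands are secreted dimers that bind receptor tyrosine kinases on blood and lymphatic endothelium. Vegfa signals mainly through Kdr (VEGFR2), which drives endothelial growth and permeability, while Flt1 (VEGFR1) binds Vegfa, Vegfb and Pgf tightly with weak kinase activity and acts largely as a decoy. Vegfc acts through Flt4 (VEGFR3), best known from lymphatic vessels and also made by liver sinusoidal endothelium, and the neuropilins Nrp1 and Nrp2 are co-receptors that bind semaphorins as well. Vegfa is a classical target of hypoxia signaling, and tumor cells and macrophages are its usual sources in solid tumors.

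All 9 genes are protein-coding in GENCODE M21 (GRCm38). Flt1 (147561604 to 147726011) and Kdr (75932827 to 75978458) lie on the minus strand of chromosome 5 and Flt4 (49609263 to 49652739) on the plus strand of chromosome 11. Nrp1 (chromosome 8, 128358604 to 128503363) and Nrp2 (chromosome 1, 62703285 to 62818695) are both read from the plus strand. Of the ligand genes, Vegfa spans 46016993 to 46032369 of chromosome 17 (minus strand) and Vegfc 54077606 to 54187096 of chromosome 8 (plus strand). Vegfb lies on chromosome 19 from 6982473 to 6987651 and Pgf on chromosome 12 from 85166635 to 85177790, both on the minus strand. Nrp2 overlaps the antisense gene Gm29083, which was also counted, and whether counting used strand is not given in the sources used here. Counts are per gene, so soluble and membrane-bound Flt1 and the splice forms of Vegfa cannot be told apart.

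Flt1, Kdr and Flt4 shared a profile across cell types (Pearson r of 0.888 to 0.934 between pairs over 48 sums of cell type and mouse), and the 250 bases before each RefSeq start (GRCm38.p6) are shown for that reason. The core of the ETS family of transcription factors, GGAAG or its reverse complement CTTCC, is in capitals. The windows are chr5:147726012-147726261 (minus strand) for Flt1, chr5:75978456-75978705 (minus strand) for Kdr and chr11:49609429-49609678 (plus strand) for Flt4, the last inside the GENCODE bounds of the gene.
Flt1: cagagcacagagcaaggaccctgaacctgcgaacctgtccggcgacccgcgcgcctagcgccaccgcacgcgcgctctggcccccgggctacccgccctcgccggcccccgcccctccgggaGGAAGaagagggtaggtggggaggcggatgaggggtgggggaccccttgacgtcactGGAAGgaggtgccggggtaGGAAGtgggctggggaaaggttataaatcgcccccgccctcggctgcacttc
Kdr: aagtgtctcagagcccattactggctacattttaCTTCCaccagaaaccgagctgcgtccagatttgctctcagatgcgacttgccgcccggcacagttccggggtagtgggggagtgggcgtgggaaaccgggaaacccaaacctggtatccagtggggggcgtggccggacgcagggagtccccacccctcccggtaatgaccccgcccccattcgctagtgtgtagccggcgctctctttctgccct
Flt4: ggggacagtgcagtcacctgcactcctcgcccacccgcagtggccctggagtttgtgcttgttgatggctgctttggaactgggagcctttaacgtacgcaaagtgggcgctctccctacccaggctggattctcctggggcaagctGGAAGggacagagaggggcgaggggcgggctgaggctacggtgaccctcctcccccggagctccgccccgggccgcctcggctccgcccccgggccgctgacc
The ETS core occurred 3 times before Flt1 and 1 time each before Kdr and Flt4, it was found before 5 of the 9 members (with Vegfa and Nrp1), and 64.1% of 32851 promoter windows of this length hold it on either strand. Vegfc, whose profile ran with those of the 3 receptors at r of 0.835 to 0.871, had none. GC content was 70.4% for Flt1, 61.6% for Kdr and 68.4% for Flt4. The GC box GGGCGG was found before all 9 members and in 32.7% of all windows, and TATAAA before Flt1 among the members and in 12.4% of all windows. The GATA letters GATAA occurred before Vegfa alone of the 9 (22.6% of all windows), and ACGTG, the core of the hypoxia response element, before none of the 9 (16.6% of all windows).

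The libraries held 149558935 to 187728350 UMIs in 58794 annotated cells of 10 cell types and 28 clusters, with a median of 7166 to 20478 UMIs per cell in a mouse. Pairs of libraries shared 14 to 43 cell barcodes, at most 0.431%. The matrix headers name Cell Ranger 9.0.0 for all control mice and 7.1.0 for all stress mice, so software version and stress cannot be told apart. All 7 endothelial markers (Pecam1, Cdh5, Eng, Ptprb, Stab2, Clec4g and Tie1) were highest in endothelial cells (ECs). Other labels were less clean. In the class labelled M-MDSCs (monocytic myeloid-derived suppressor cells) the 5 tumor markers (Epcam, Krt18, Krt8, Afp and Cldn6) had a mean sum of 679 CPM, against 789 CPM in tumor cells. Of the 5, Krt8 was no higher in either class than the 6.94 CPM of monocytes. The class labelled HSCs (hepatic stellate cells, 128 cells) was highest in the keratin Krt8 (300 CPM) as well as the collagen Col1a1. It also held Epcam at 166 and Krt18 at 417 CPM, against 145 and 423 CPM in tumor cells. CPM, the usual depth-scaled unit, is the UMIs of a gene divided by all UMIs of the same sum of cells and scaled to a common library size. EC cluster 16 (1247 of 11433 ECs) carried the tumor markers at 456 to 714 CPM per mouse, against 17.2 to 46.6 CPM in EC cluster 2 and 696 to 974 CPM in tumor cells, and it is named beside the EC results.

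The 5 receptors had their highest level in ECs, above the next cell type in 6 of 6 mice for each. Kdr reached 756 ± 201 CPM (SD, n = 6 mice) in ECs and at most 13.3 CPM on average elsewhere, in HSCs. Flt4 was at 358 ± 73.9 CPM in ECs and at most 9.89 CPM elsewhere. Both receptors were thus close to endothelial-only in these tumors. Flt1 was at 669 ± 119 CPM in ECs, 64.3 ± 57.5 CPM in HSCs and 58.8 ± 30.0 CPM in monocytes, and HSCs and monocytes overlapped. In monocytes Flt1 spanned 18.8 to 102 CPM among mice, and in tumor cells it stayed between 17.5 and 22.6 CPM. The neuropilins reached further outside the endothelium. Nrp1 was at 225 ± 43.4 CPM in ECs, followed by NK/T cells at 47.6 ± 13.4 CPM and monocytes at 28.0 ± 8.18 CPM, and it was at 0.60 ± 0.24 CPM in tumor cells. Nrp2 was at 252 ± 30.5 CPM in ECs and 119 ± 20.05 CPM in tumor cells, and M-MDSCs (106 ± 20.4 CPM) followed tumor cells within their spread.

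Depth differed widely between cell types, so cells were also thinned to 1000 UMIs each, which left out 2315 cells. After thinning, 57.6% of ECs held a Kdr UMI, against 0.19% of tumor cells and 0.67% of B cells, a type expected to lack the receptor. Without thinning the shares were 89.3% of ECs (median 4538 UMIs), 4.54% of tumor cells (27716 UMIs) and 3.501% of B cells (4720 UMIs). Flt1 was seen in 51.9% of thinned ECs, 6.03% of monocytes, 1.85% of tumor cells and 0 of 450 B cells, which allows up to 0.667% of B cells with a UMI at this depth. Without thinning Flt1 was seen in 86.8% of ECs, 22.7% of monocytes, 34.5% of tumor cells and 3.28% of B cells. In several other cell types Flt1 did not come in the proportion to Kdr that ECs have. The ratio of Flt1 to Kdr UMIs was 0.856 in ECs (0.607 to 1.43 among mice), 5.43 in monocytes (2.24 to 7.70) and 10.2 in tumor cells (5.81 to 16.7). It also lay above the range of ECs in NK/T cells (3.10, from 2.05), dendritic cells (3.47, from 2.17) and M-MDSCs (12.1, from 6.25). These rested on 68, 108 and 14 Kdr UMIs, and mice without a Kdr UMI were left out of the ranges. In B cells (0.75, 0.3 to 4.0) and inflammatory myeloid cells (1.61, from 0.641) the ratio overlapped the range of ECs. In the same way the ratio of Nrp2 to Nrp1 UMIs was 1.12 in ECs (0.996 to 1.42) and 201 in tumor cells (158 to 375). Limits on shares of cells cover counting error only.

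**Figure D1:**
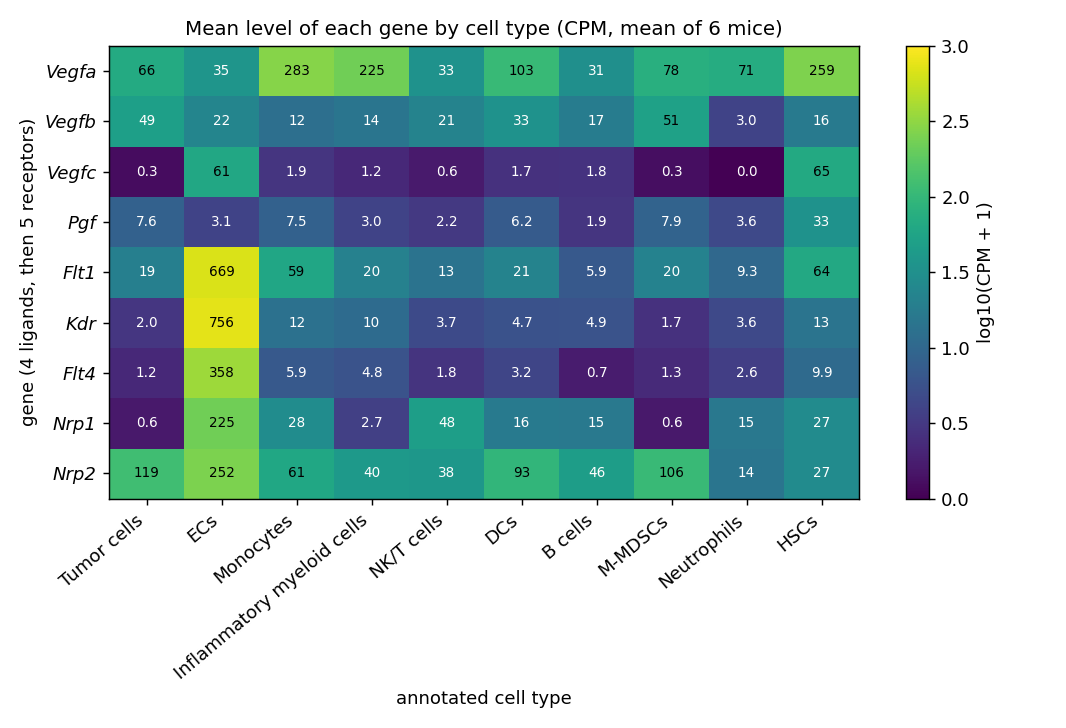
Mean CPM of each of the 9 genes in each annotated cell type, averaged over the 6 mice. The 5 receptors are highest in ECs, Vegfa is highest in monocytes and HSCs (283 and 259 CPM), and Vegfc in HSCs and ECs (64.8 and 61.2 CPM).

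Vegfa, Vegfb and Pgf had their highest levels in other cells than the receptors. Vegfa was highest in monocytes at 283 ± 78.4 CPM, followed by HSCs at 259 ± 104 CPM and inflammatory myeloid cells at 225 ± 63.6 CPM, and these overlapped. Dendritic cells (DCs) followed at 103 ± 29.3 CPM, below inflammatory myeloid cells in 6 of 6 mice, and tumor cells stood at 66.3 ± 16.3 CPM, above ECs (35.4 ± 4.87 CPM) in 6 of 6 mice. Monocytes, inflammatory myeloid cells and DCs thus led tumor cells per UMI. M-MDSCs (77.6 ± 30.7 CPM) and neutrophils (70.8 ± 43.5 CPM, 175 cells) overlapped tumor cells. After thinning, a Vegfa UMI was seen in 23.2% of monocytes, 19.95% of inflammatory myeloid cells, 6.59% of tumor cells and 1.996% of ECs, the last close to the 2.0% of B cells. Without thinning the shares were 55.8%, 27.3%, 65.0%, 10.3% and 9.41%. Vegfb, a ligand of Flt1, was at 50.9 ± 7.62 CPM in M-MDSCs and 48.6 ± 5.15 CPM in tumor cells, which did not differ beyond their spread, and at 11.6 ± 4.03 CPM in monocytes, the reverse of the order of Vegfa.

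Vegfc was at 61.2 ± 22.2 CPM in ECs, the cells highest in its receptor Flt4, and at 64.8 ± 27.6 CPM in HSCs, which overlapped, and at most 1.89 CPM on average in the other types. Pgf, the placental growth factor that binds Flt1, was low throughout. It was at 33.1 ± 32.5 CPM in HSCs, where 87 UMIs in 128 cells gave values from 0 to 82.7 CPM, at 7.62 ± 0.71 CPM in tumor cells and at 7.496 ± 3.37 CPM in monocytes.

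The share of a gene's UMIs held by each cell type followed another order than the levels, since tumor cells held 82.2% ± 8.24 (SD, n = 6 mice) of all UMIs. Tumor cells held 73.4% ± 11.7 of Vegfa UMIs, while monocytes held 14.6% ± 8.72, from 6.29% to 30.2% among mice. The tumor cell share was 91.5% ± 3.77 for Vegfb and 86.8% ± 8.62 for Pgf. ECs, with 7.20% ± 1.82 of all UMIs, held nearly all UMIs of the kinase receptors except Flt1. They held 95.8% ± 0.84 of Kdr, 94.7% ± 0.80 of Flt4, 89.1% ± 3.01 of Vegfc, 85.6% ± 6.15 of Nrp1 and 70.2% ± 6.62 of Flt1. Nrp2 was the 1 receptor held mostly by tumor cells, at 79.9% ± 5.78 against 14.9% ± 3.22 in ECs. How many cells of a type were captured and how much RNA each held cannot be told apart in these shares.

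The tumor cell share of Vegfa UMIs was 80.0% on average in the controls against 66.7% under stress (p = 0.3 by an exact permutation test, adjusted p = 0.45 over 18 shares), while the tumor cell share of all UMIs averaged 86.9% and 77.5%. With 3 mice against 3 no p below 0.1 can be reached. 4 of the 18 shares reached it, Vegfc and Nrp2 in ECs and in tumor cells, each with an adjusted p of 0.36 in the exact permutation test. The EC share of Nrp2 averaged 12.7% in control and 17.2% in stress mice, and that of Vegfc 91.2% and 87.0%, while the EC share of all UMIs averaged 6.22% and 8.18%.

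Within the ECs the receptors varied widely among clusters. EC cluster 2, with 4789 cells, was highest for Kdr (1139 ± 199 CPM), Flt4 (560 ± 133 CPM) and Nrp1 (347 ± 64.8 CPM). Cluster 8 (2847 cells) followed with Kdr at 1046 ± 198 CPM and was highest for Vegfc (119 ± 47.2 CPM) and Nrp2 (328 ± 47.6 CPM). In cluster 18 (989 cells) Flt1 stood above Kdr, at 938 ± 173 against 626 ± 161 CPM on this scale that does not correct for gene length. Its ratio of Flt1 to Kdr UMIs exceeded that of cluster 2 in 6 of 6 mice, with 2.21, 1.31 and 2.06 in control and 1.703, 0.964 and 1.26 in stress mice against 1.29, 0.592, 1.16, 0.868, 0.581 and 0.641. Vegfc was at 19.1 ± 14.5 CPM in cluster 18, below cluster 8. Cluster 16, which carries the tumor markers, was lowest for 4 of the 5 receptors among the 6 tested EC clusters, with Kdr at 176 ± 39.4 CPM and Flt4 at 79.0 ± 23.4 CPM, but held Nrp2 at 174 ± 28.4 CPM. Cluster 15 (1259 cells) was shallow, with a median of 1212 UMIs per cell, and held 34, 104 and 81 cells of control against 176, 450 and 414 of stress mice, or 1.23% to 1.95% against 3.88% to 7.16% of EC UMIs. The clusters come from these same counts, so differences between them are a description without a test.

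Most ECs carried several receptors at once. All 3 kinase receptors were seen in 76.9% of the cells of cluster 2 and 79.2% of cluster 8, at medians of 4375 and 5306 UMIs per cell, and in 0.44% of B cells at 4720 UMIs. All 5 receptors were seen in 42.1% and 47.4% of the cells of clusters 2 and 8. In the deeper cluster 16 (median 14860 UMIs) the 3 kinase receptors were seen together in 46.8% of cells. In the shallow cluster 15 (median 1212 UMIs) the share was 19.0%, and over all ECs it was 66.7%. After thinning, 39.7% of cluster 16 held no receptor UMI, against 5.64% of cluster 2 and 96.4% of B cells.

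**Figure D2:**
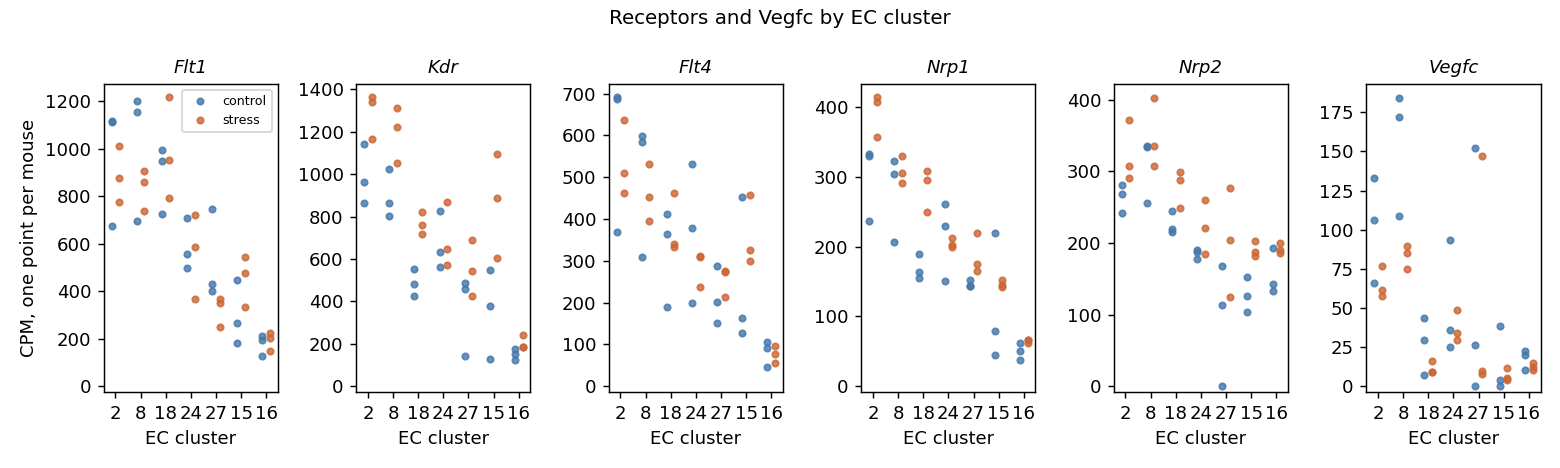
CPM of the 5 receptors and Vegfc in the 7 EC clusters, one point per mouse, colored by group. Kdr is highest in clusters 2 and 8 and lowest in cluster 16, Vegfc is high in cluster 8, and the Kdr points of stress mice lie above all control points in clusters 2, 8, 15, 16 and 18.

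Stress mice were compared with control mice to ask what chronic stress changes in the tumor. In ECs none of the 9 members passed the test (0 of 9, edgeR's quasi-likelihood test, Benjamini-Hochberg adjusted p under 0.05), in a fit that called 0.213% of 14090 genes. 4 members had an unadjusted p under 0.05, Kdr, Nrp1 and Nrp2 with higher and Vegfc with lower values in stress mice, as against 15.6% of all genes tested, and DESeq2 called 0 of the 9. The median log2 fold change of the members was 0.13, against -0.01 over all genes tested. In 3 of 9 members (Nrp1, Nrp2 and Vegfb) the groups did not overlap in CPM, as in 22.8% of all genes tested.

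Kdr had 507, 740 and 604 CPM in ECs of the 3 control mice and 724, 896 and 1066 CPM in those of the 3 stress mice. Control mouse 2 reached just above stress mouse 1 and the groups otherwise stood apart, with a log2 fold change of 0.51 ± 0.19 (SE, edgeR adjusted p = 0.278). Nrp1 had 195, 156 and 221 CPM in control and 245, 265 and 266 CPM in stress mice, without overlap (log2 fold change 0.41 ± 0.15, adjusted p = 0.263). Nrp2 had 224, 221 and 237 CPM against 268, 300 and 265 CPM, again without overlap (log2 fold change 0.26 ± 0.10, adjusted p = 0.284). Kdr and both neuropilins thus had higher means in stress mice without passing the test. Over all alternatives run their adjusted p ranged from 0.0943 to 0.599 for Kdr, from 0.118 to 0.562 for Nrp1 and from 0.180 to 0.646 for Nrp2.

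Flt1 and Flt4 did not share this direction. Flt1 had 723, 496 and 795 CPM in control and 722, 544 and 732 CPM under stress (log2 fold change -0.04 ± 0.22, adjusted p = 0.945). Flt4 had 396, 231 and 427 CPM against 394, 308 and 393 CPM (log2 fold change 0.03 ± 0.24, adjusted p = 0.967). In each group mouse 2 was lowest for both genes, whereas Kdr in control mouse 2 was the highest of its group. The sign of both fold changes turned when single mice were left out.

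The balance of the receptors was therefore taken within each library. The ratio of Flt1 to Kdr UMIs in ECs came to 1.43, 0.670 and 1.32 in the controls, against 0.996, 0.607 and 0.687 under stress. On the log2 scale it averaged 0.11 ± 0.60 (SD, n = 3) in control and -0.42 ± 0.37 (SD, n = 3) in stress mice, a difference of -0.53 (exact permutation test, p = 0.3). Control mouse 2 lay among the stress mice. Leaving it out gave a difference of -0.88 and leaving out control mouse 1 one of -0.33. The ratio had a lower mean in stress mice in each of clusters 2, 8, 15, 16, 18 and 24, which share the same mice, with differences from -0.16 in cluster 24 to -0.83 in cluster 15.

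Cluster 16, which carries the tumor markers, gave 40.3%, 30.6% and 33.7% of EC UMIs in control and 33.8%, 27.5% and 17.4% in stress mice. The summed tumor markers in ECs were 195 to 274 CPM in control and 104 to 279 CPM in stress mice. The groups overlapped in both, and their part in the receptor values was not tested. With cluster 16 left out, an alternative chosen after seeing the data, Kdr had 765, 991 and 834 CPM against 1001, 1166 and 1240 CPM, now without overlap (log2 fold change 0.37 ± 0.15, adjusted p = 0.365). Nrp1 then had a log2 fold change of 0.27 ± 0.17 (adjusted p = 0.562), still without overlap, and Nrp2 one of 0.18 ± 0.13 (adjusted p = 0.638) with overlap. Of the members, Kdr, Nrp1 and Vegfc did not overlap without cluster 16. In all ECs 22.8% of genes did not overlap, and the share without cluster 16 is not given here. Within single clusters the Kdr groups did not overlap in 5 of 6 tested EC clusters, with stress mice higher in each of the 5, as against 19.2% of all genes in these clusters (either direction). The clusters share the same mice, so the 5 are not independent of each other. In cluster 18 Kdr had 427, 553 and 482 CPM against 716, 820 and 759 CPM (log2 fold change 0.63 ± 0.16, adjusted p = 0.1004). Nrp1 in cluster 18 had 164, 155 and 190 CPM against 308, 296 and 250 CPM (log2 fold change 0.73 ± 0.16, adjusted p = 0.0740). In the fits of all 6 mice without a block these were the smallest adjusted p of either receptor in an EC cluster, and neither passed.

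**Figure D3:**
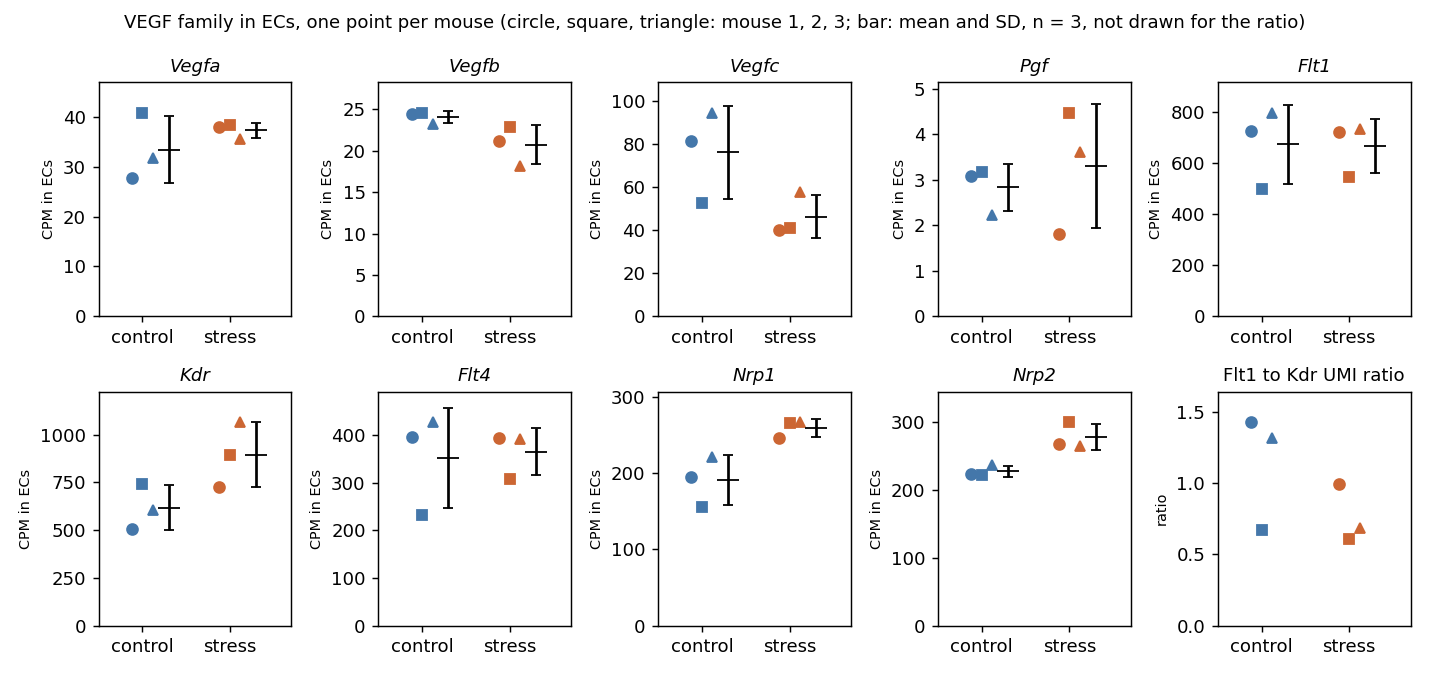
CPM of each gene in the summed ECs of each mouse, with the mean and SD of 3 mice per group, and the ratio of Flt1 to Kdr UMIs. Nrp1 and Nrp2 of stress mice lie above all control mice, Vegfb below, and mouse 2 of each group is lowest in Flt1 and Flt4.

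Among the ligands in ECs, Vegfc had 81.3, 52.4 and 94.5 CPM in control and 40.1, 40.9 and 57.9 CPM in stress mice. Control mouse 2 lay below stress mouse 3 and the other control mice above all stress mice (log2 fold change -0.74 ± 0.25, adjusted p = 0.242). Without cluster 16 the groups no longer overlapped, at 121, 71.0 and 132 CPM against 54.2, 52.5 and 67.1 CPM (log2 fold change -0.92 ± 0.25, adjusted p = 0.245). In cluster 8, where Vegfc was highest, it had 184, 109 and 172 CPM against 89.5, 74.6 and 85.2 CPM (log2 fold change -0.90 ± 0.22, adjusted p = 0.240). Control mouse 2 decided the call, since without it Vegfc passed in clusters 2, 8 and 18 (adjusted p of 0.0471, 0.0118 and 0.0491, in fits that called 1.5%, 1.3% and 2.09% of genes), though not in all ECs (adjusted p = 0.0908).

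Cluster 16 gave 57.5% of EC Vegfa UMIs and 49.3% of EC Vegfb UMIs, against 6.52% of EC Kdr UMIs. Vegfa had 27.6, 40.8 and 31.8 CPM in control and 38.0, 38.4 and 35.6 CPM in stress mice, overlapping (log2 fold change 0.13 ± 0.15, adjusted p = 0.699). Vegfb had 24.5, 24.6 and 23.2 CPM against 21.1, 22.9 and 18.2 CPM, without overlap (log2 fold change -0.24 ± 0.12, adjusted p = 0.385). Without cluster 16 the Vegfb groups overlapped and its log2 fold change was -0.03 ± 0.14. Pgf had 1.82 to 4.47 CPM over the 6 mice (log2 fold change 0.20 ± 0.35, adjusted p = 0.814). Without cluster 16 its log2 fold change was 1.40 ± 0.72 (adjusted p = 0.481).

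Outside the endothelium 1 of the 9 members passed the test in 1 cell type. Vegfb fell in tumor cells, from 51.7, 55.8 and 50.5 CPM in control to 45.0, 47.5 and 41.3 CPM in stress mice, without overlap (log2 fold change -0.38 ± 0.09, edgeR adjusted p = 0.0226). The tumor cell fit called 21.4% of 18856 genes, lower in stress mice for 9.46% of the genes tested, and 38.3% of genes had groups that did not overlap, so 1 called member of 9 is near the background. DESeq2 also called it (adjusted p = 0.00378). The call was lost without control mouse 1 (adjusted p = 0.0674), control mouse 3 (adjusted p = 0.0773), stress mouse 2 (adjusted p = 0.0645) or stress mouse 3 (adjusted p = 0.0569). Without stress mouse 3 Vegfc was called in its place (log2 fold change -1.33, adjusted p = 0.0481). The log2 fold changes of Vegfb ran from -0.44 to -0.31 over all mice left out. The share of all genes called in tumor cells by DESeq2 or without stress mouse 3 is not given here, so these calls have no background of their own. Vegfb had a lower mean in stress mice in 10 of 10 tumor clusters, and in 7 of them the groups did not overlap, as against 27.4% of genes in these clusters (either direction). The clusters share mice, and the smallest adjusted p for Vegfb among them was 0.0554, in cluster 1.

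Vegfa had the other sign in tumor cells without passing the test, with 43.8, 72.1 and 52.1 CPM in control and 65.9, 75.6 and 88.5 CPM in stress mice. Control mouse 2 lay above stress mouse 1 (log2 fold change 0.31 ± 0.17, adjusted p = 0.226). This mouse decided the call, since without it the log2 fold change was 0.50 ± 0.13 with an adjusted p of 0.0244, in a fit that called 29.9% of genes. Vegfa had a higher mean in stress mice in 9 of 10 tumor clusters, and the groups did not overlap in 3 of the 10 (clusters 6, 7 and 14), close to the 27.4% of genes given above. Across tumor clusters it ranged from 10.1 CPM in cluster 21 to 152 CPM in cluster 17, a shallow cluster with a median of 1852 UMIs per cell. Cluster 17 was also the highest tumor cluster for Kdr (20.9 CPM), Flt4 (10.7 CPM) and Nrp1 (6.60 CPM). The part of transcripts from other cells in its Vegfa was not tested. With Vegfb, Vegfc and Pgf had an unadjusted p under 0.05 in tumor cells, both with lower values in stress mice (adjusted p of 0.0717 and 0.113), as did 37.4% of all genes tested, and Vegfc was at 0.14 to 0.40 CPM there.

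In monocytes, the cells with the most Vegfa per UMI, the gene had 217, 196 and 268 CPM in control and 351, 267 and 400 CPM in stress mice. Stress mouse 2 lay just below control mouse 3 and the other stress mice above all controls (log2 fold change 0.63 ± 0.23, adjusted p = 0.342). Within each of the 3 monocyte clusters the groups did not overlap, as in 16.7% of genes in these clusters. The clusters share the same mice, so the 3 are not independent of each other. Cluster 11 had 246, 212 and 167 CPM against 385, 331 and 386 CPM (log2 fold change 0.92 ± 0.18, adjusted p = 0.1003). Cluster 12 had 26.5, 50.4 and 96.9 CPM against 131, 129 and 215 CPM (log2 fold change 1.44 ± 0.37, adjusted p = 0.154), and cluster 13, the highest in Vegfa, 242, 320 and 403 CPM against 410, 422 and 576 CPM (adjusted p = 0.610). The groups thus separated within the clusters while no cluster passed the test. The labels state no pairing of mice. In monocytes mice of the same number deviated together with r of 0.476, 0.422 and 0.146, while control mouse 2 and stress mouse 3 reached 0.187. Values of a fit that blocked on that number are given here because of these r, so the choice came from the same data. A pairing would belong to the mice and not to 1 cell type, so the blocked values are an alternative without a stated design behind them. In all monocytes the fit with the block called 1.67% of genes, against 0.122% without it. With the block Vegfa passed in cluster 11 (log2 fold change 0.92 ± 0.18, edgeR adjusted p = 0.0383) and cluster 12 (1.51 ± 0.22, adjusted p = 0.00321), where that fit called 1.55% and 2.27% of genes. It did not pass with the block in cluster 13 (adjusted p = 0.103) or in all monocytes (adjusted p = 0.0511). In DC cluster 20 Vegfa had 43.5, 48.0 and 64.4 CPM against 104, 91.0 and 104 CPM (log2 fold change 1.02 ± 0.25, adjusted p = 0.108).

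Inflammatory myeloid cells had Vegfa at 128, 194 and 286 CPM in control and 287, 194 and 261 CPM in stress mice, overlapping (log2 fold change 0.40 ± 0.50, adjusted p = 0.994). Their Vegfb was at 2.54 to 28.1 CPM over the mice (log2 fold change -0.47 ± 0.60, adjusted p = 0.994), and in monocytes Vegfb was at 7.30 to 16.8 CPM (log2 fold change -0.12 ± 0.34, adjusted p = 0.909). Nrp1 had the smallest unadjusted p of any member in monocytes, with 17.98, 26.2 and 18.8 CPM in control and 34.9, 34.8 and 35.3 CPM under stress (log2 fold change 0.77 ± 0.18, adjusted p = 0.190). It was the 1 of 9 members whose groups did not overlap in monocytes, as against 18% of genes. With the block, for which the labels state no pairing, Nrp1 passed in monocyte cluster 13 (log2 fold change 1.24 ± 0.24, edgeR adjusted p = 0.0495), where 1.57% of genes were called, but not in all monocytes (adjusted p = 0.0706). The 7 endothelial markers summed to 91.5 to 141 CPM in control and 137 to 182 CPM in stress monocytes, and their part in Nrp1 was not tested.

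**Figure D4:**
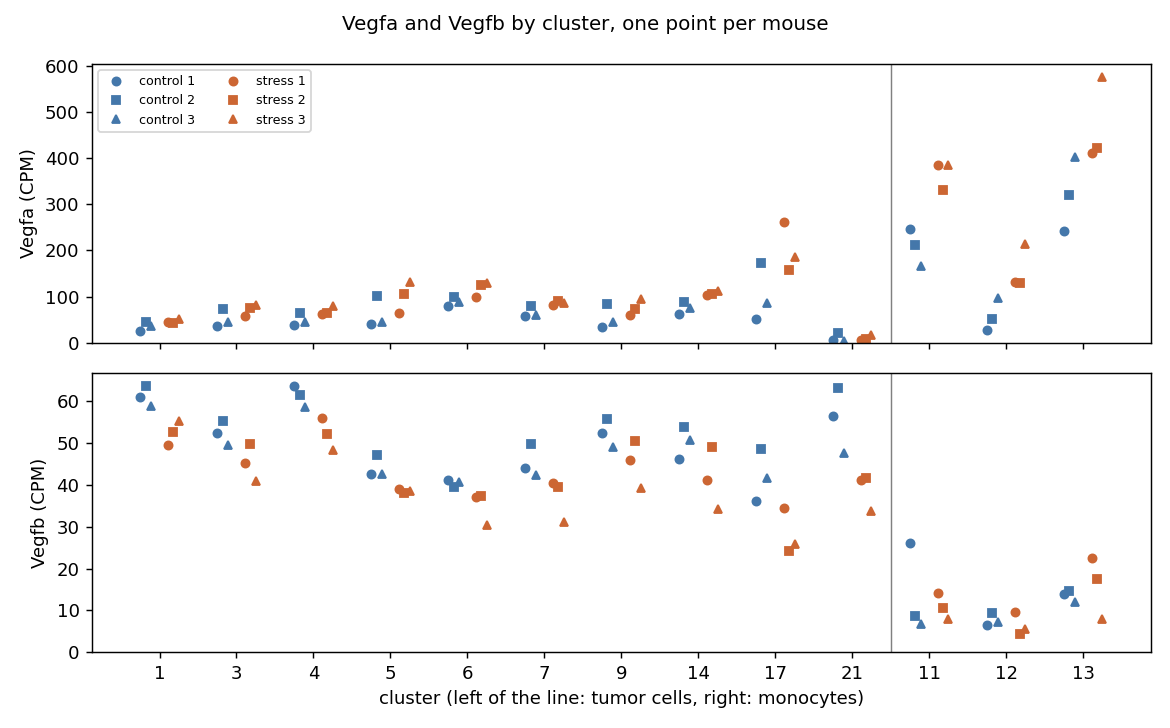
CPM of Vegfa and Vegfb in each tumor cluster and, right of the line, each monocyte cluster, one point per mouse. Vegfa of stress mice lies above all control mice in monocyte clusters 11, 12 and 13, and Vegfb has a lower mean in stress mice in all 10 tumor clusters.

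The remaining cell types gave no call among the members tested, by edgeR or by DESeq2. The share of genes called by edgeR was 0.122% in monocytes (9 members tested), 0.0% in inflammatory myeloid cells (5), 0.857% in NK/T cells (5), 2.64% in DCs (7), 0.483% in B cells (2) and 0.561% in M-MDSCs (5). Across the 8 cell types tested, ECs and tumor cells included, 12 of 51 pairs of a member and a cell type (23.5%) had an unadjusted p under 0.05, as against 17.4% of all gene tests there. Neutrophils (down to 4 cells in one of the mice) and HSCs (down to 6) were not tested. Of 162 pairs of a member and a cluster in 25 clusters, 0 were called by edgeR, while 3.24% of all gene tests in these clusters were. 33 of the pairs (20.4%) had an unadjusted p under 0.05, 23 with higher and 10 with lower values in stress mice, close to the 17.1% of all gene tests in these clusters, and DESeq2 was not run on clusters. Control mouse 2 decided this count, since without it 17 of 163 pairs (10.4%) were called, in fits that called 7.23% of all gene tests, and without any one of the other mice 0 were. Of the 17, Vegfa made up 9 and Nrp2 5, all with higher values in stress mice, and Vegfc 3, all with lower values.

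**Figure D5:**
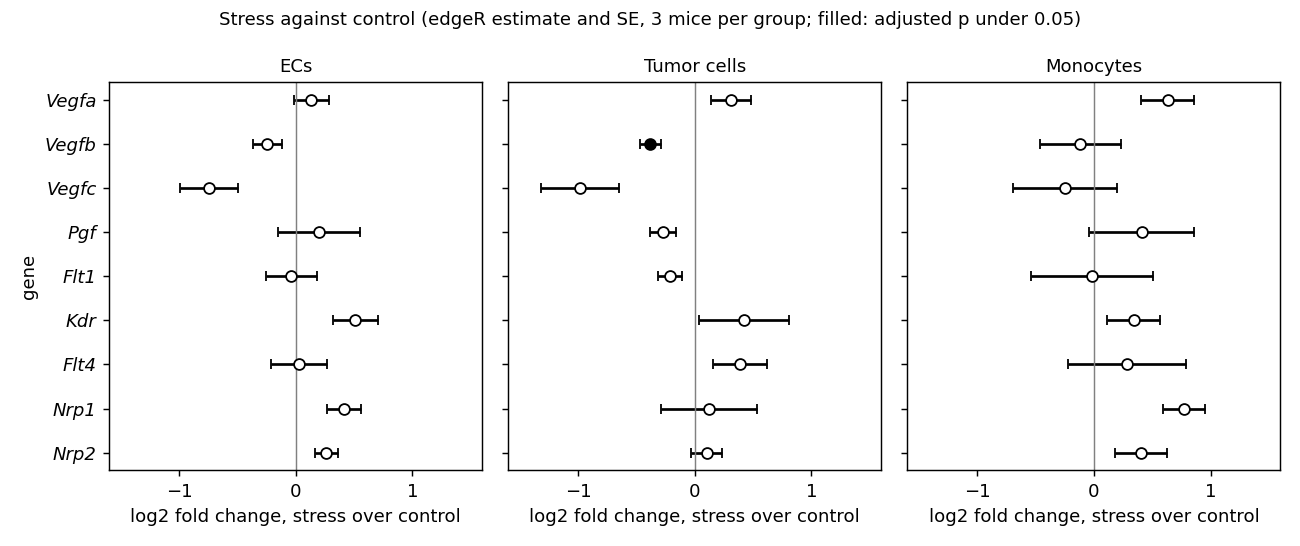
Log2 fold change of stress over control with its SE (edgeR, 3 mice per group) for the 9 genes in ECs, tumor cells and monocytes. Vegfb in tumor cells (-0.38) is the 1 value with an adjusted p under 0.05.

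Whether a member's difference between stress and control mice differed between 2 cell types was tested directly, with the mouse as a block. Of 27 interactions (ECs with tumor cells, ECs with monocytes, monocytes with tumor cells) edgeR called 0, while 0.0695% of all gene tests were called. 0 of the 27 had an unadjusted p under 0.05, as against 9.45% of all gene tests. DESeq2 was not run on interactions. The smallest unadjusted p was 0.0563 for Flt4, whose log2 fold change in ECs minus that in tumor cells was -0.43 ± 0.20. For Vegfa the difference of ECs minus tumor cells was -0.27 ± 0.13 and of monocytes minus tumor cells 0.22 ± 0.26. The Vegfb call in tumor cells was not shown to differ from other cells, with differences of 0.05 ± 0.11 for ECs and 0.18 ± 0.29 for monocytes.

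The genes around the receptors gave no edgeR call in ECs either. Of the intermediates of VEGF signaling 0 of 36 tested passed, and the median log2 fold change was -0.05. In each direction 4 had an unadjusted p under 0.05, as against 15.6% of all genes in both directions together. Without cluster 16 the list had such a p for 1 with higher and 4 with lower values among 35 tested, as against 12.5% of all genes. The 3 with the smallest p had lower means in stress mice, the kinase Map2k2 (81.6 ± 3.31 against 62.9 ± 2.63 CPM, SD, adjusted p = 0.127), the neuropilin-binding adaptor Gipc1 (84.4 ± 9.93 against 60.3 ± 5.86 CPM, adjusted p = 0.157) and the small GTPase Rac1 (594 ± 37.3 against 457 ± 6.13 CPM, adjusted p = 0.164). DESeq2, which called 2.99% of all genes in ECs, called these 3, with adjusted p of 0.0333, 0.0493 and 0.0148.

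Of the tip cell and VEGF-responsive genes, those of sprouting endothelium, 0 of 23 passed the edgeR test, 3 had an unadjusted p under 0.05, all with higher values in stress mice, no larger a share than the 15.6% of all genes, and the median was -0.05. Without cluster 16 the list had 3 with higher and 3 with lower values (median -0.12), where 12.5% of all genes had such a p. Igfbp3, a secreted binding protein of insulin-like growth factors, had 3.91, 3.56 and 5.49 CPM in control and 10.8, 17.1 and 32.0 CPM in stress mice, without overlap (log2 fold change 2.19 ± 0.41, adjusted p = 0.102). DESeq2 called it alone of the list (adjusted p = 2.17e-05). These values rest on few cells, since 52 of 11433 ECs (0.455%) held an Igfbp3 UMI and 10 of them held 65.3% of its 969 UMIs. The basement membrane gene Nid2 (1.66 ± 0.97 against 4.13 ± 1.02 CPM) and the vasodilator Adm (17.2 ± 3.21 against 29.1 ± 8.60 CPM) each had an adjusted p of 0.239.

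The hypoxia genes had the lowest median of the lists, with a log2 fold change of -0.50 and 0 of 8 called by edgeR. Ankrd37 had 26.1 ± 4.07 against 10.96 ± 2.05 CPM (adjusted p = 0.0706), the glucose transporter Slc2a1 61.0 ± 6.86 against 38.4 ± 2.29 CPM (adjusted p = 0.0905) and the mitophagy gene Bnip3 78.4 ± 14.2 against 42.9 ± 4.64 CPM (adjusted p = 0.0991). The 3 were named for having the smallest p of the 8 tested, which favors separation of the groups. Each was lower in every stress mouse than in any control mouse, as in 22.8% of all genes (either direction). Of the 8 tested, 3 had an unadjusted p under 0.05, as against 15.6% of all genes. DESeq2 called the same 3, as against 2.99% of all genes. Without cluster 16 their log2 fold changes were -1.29, -0.72 and -0.67 (adjusted p of 0.109, 0.281 and 0.309).

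Of the lymphatic endothelial genes 0 of 8 passed, 0 had an unadjusted p under 0.05 and the median was -0.17, with the smallest p for Mmrn1, Ccl21a and Lyve1. Lyve1, also a sinusoidal gene, had 996, 119 and 845 CPM in control and 766, 235 and 168 CPM in stress mice, so control mouse 2, in which Flt1 and Flt4 were lowest, was lowest here as well (adjusted p = 0.678). Of the extracellular inhibitors of angiogenesis 0 of 8 passed, with a median of 0.10, which was -0.05 without cluster 16. Vash1, an endothelial feedback inhibitor, had 27.8 ± 3.58 against 19.4 ± 4.57 CPM and the only unadjusted p under 0.05 (adjusted p = 0.265), followed by Adamts9 (adjusted p = 0.330) and Col18a1 (adjusted p = 0.624). Without cluster 16 Vash1 and Adamts9 both had such a p, with lower values in stress mice, as against 12.5% of all genes. DESeq2 called 0 genes of these lists. Vegfd, a further ligand of the family, was too low to be tested.

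Pgf in ECs came from few cells. Outside cluster 16 the ECs held 6, 14 and 6 Pgf UMIs in control and 3, 38 and 52 in stress mice, and 16 ECs carried at least 2 of them, 3 in control mouse 2, 4 in stress mouse 2 and 9 in stress mouse 3. In cluster 2, which held 11 of the 16, the mice had 0, 1 and 0 Pgf UMIs in control and 0, 36 and 35 in stress. The 16 cells were picked out after their values were seen, and what follows is a description without a test. Summed over them, 20 of 23 tip cell genes were higher in CPM than in the 10131 ECs outside cluster 16 without a Pgf UMI, 9 of them over 5 times. The share of all genes higher in these cells is not given here, and Apln and Aplnr rested on 3 and 1 of the 16. Esm1, the endocan gene that marks tip cells, stood at 659 against 32.2 CPM, and Igfbp3 at 1950 against 10.4 CPM. The chemokine receptor Cxcr4 stood at 259 against 9.27 CPM. Plvap (236 against 349 CPM), Rcan1 (68.2 against 94.2 CPM) and Egr3 (0 against 2.54 CPM) were the tip cell genes of the list that were lower. Of the 7 endothelial markers 6 were lower, among them Stab2 at 177 against 1509 CPM, Clec4g at 236 against 1404 CPM, Ptprb at 455 against 2332 CPM, Eng at 218 against 865 CPM and Pecam1 at 636 against 781 CPM, and Cdh5 was the exception at 1082 against 962 CPM. Of the receptors, Kdr was at 373 against 1042 CPM and Flt4 at 99.99 against 477 CPM, while Flt1, the receptor of Pgf, was at 1068 against 872 CPM. The 16 cells had a median of 12958.5 UMIs against 4511 in the other ECs, and the part of depth in their choice was not tested.

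The genes whose levels ran most alike with each member were taken over the 48 sums (8 cell types in 6 mice) among 9005 genes. For Kdr they were the sinusoidal lectin Clec4g, Dlc1 and Serpinh1 (Pearson r of 0.971, 0.966 and 0.965), and for Flt4 Masp1, Clec4g and Abcc9 (0.972, 0.966 and 0.966). For Flt1 they were Cemip2, Smad6 and Sptlc2 (0.954, 0.947 and 0.937). Nrp1 ran closest with Tacc1, Spata6 and Mndal (0.945, 0.933 and 0.930), and Nrp2 with Tnfaip1, Cpne3 and Norad (0.925, 0.924 and 0.922), while r between Nrp1 and Nrp2 was 0.207. Among the ligands, Vegfa ran closest with the activin subunit Inhba, Ftl1 and Klra2 (0.921, 0.918 and 0.910), and Vegfb with C1qbp, Tmem237 and Elp2 (0.960, 0.958 and 0.951). Vegfc ran closest with Gm46565, Fbxl7 and Shank3 (0.936, 0.927 and 0.920) and Pgf with Axl, Pacsin2 and Pgd (0.748, 0.731 and 0.727). The sums share libraries, depth and cell types, so these values describe likeness of profile alone.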

How the data were processed

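Liver tumors of 6 mice were analysed, 1 library each. For each cell and gene the authors deposited its raw UMI count (mm10, with Cell Ranger 9.0.0 named in the matrix headers of control and 7.1.0 in those of stress mice) and a table of clusters and cell types, for which the labels name Seurat. Their methods state that doublets were removed with Scrublet, so no doublet caller was run here. The annotation used for counting is not given in the sources used here. Counts of annotated cells were summed per mouse and cell type or cluster and compared by the quasi-likelihood test of edgeR 4.0.16 (R 4.3.3, TMM after filterByExpr, Benjamini-Hochberg adjustment over all genes, threshold 0.05) where each mouse had at least 10 cells. This step was run on simulated sums whose changes were larger than that of any member in the fit of all ECs. It therefore does not show whether changes of the members' size would be found. Shares and ratios were compared by exact two-sided permutation tests over mice. Alternatives were DESeq2 1.42.0, RLE normalization, no filter on low counts, the replicate number as a block, each mouse left out, cells thinned to 1000 UMIs and subsets of EC clusters. Profiles used log2(CPM + 1), and each member was compared with genes of a mean of at least 10 CPM. The members Vegfc (8.62 CPM) and Pgf (4.93 CPM) were themselves below that mean. Python 3.11.15, scipy 1.17.1 and matplotlib 3.10.9 were used. Gene positions are from GENCODE M21 and promoter windows from RefSeq, which listed all 9 members.

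The members and the gene lists were chosen with earlier results of these data known. Values are given for all 9 members in ECs, for Vegfa and Vegfb in tumor cells, monocytes and inflammatory myeloid cells, for any member past the threshold, for the 3 most similar genes of each member, and for list genes past the threshold in ECs or otherwise the 3 with the smallest p. Single clusters, Nrp1 in monocytes and the ECs with Pgf were added after their values were seen. Each p-value rests on the spread among mice, 3 against 3 except where a mouse was left out. In fits with a block it rests on the spread left after the block. The edgeR and DESeq2 fits also draw on the spread of other genes.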

Additional observations from a re-analysis of the deposited data

How the results depend on the processing

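Precision is limited by 3 mice per group. Of the values and counts that answer a comparison, 212 recomputations stayed within the same side and direction (for counts of calls, in number), 8 counts moved and 7 small differences in UMI share changed sign. Among the named values, 179 were the same, 15 changed sign, 4 lost the call, 1 gained it and 4 mean levels moved. Kdr, Nrp1, Nrp2, Vegfb and Vegfc in ECs kept their sign in all 14 alternatives, without a call in any. Without a filter on low counts 1 member of 9 (Flt4) was called in DCs against 0 of 7, in a fit that called 3.79% of genes. Leaving out each mouse in turn gave 0 to 2 called members in tumor cells and 0 to 17 over all clusters, the 17 without control mouse 2. The same step moved the log2 fold change in ECs from -0.21 to 0.12 for Flt1, from -0.20 to 0.21 for Flt4 and from -0.0498 to 0.472 for Pgf, and for Vegfb from -0.46 to 0.11 in monocytes and from -0.840 to 0.0772 in inflammatory myeloid cells. It moved the difference in UMI share, in percentage points, from -0.291 to 0.0570 for Vegfa in ECs, from -0.181 to 0.782 for Kdr in ECs and from -0.645 to 0.351 for Flt4 in tumor cells. Thinning to 1000 UMIs changed the sign of the Kdr share in ECs (-0.168), of the Nrp1 share in tumor cells (0.0549) and of the log2 fold change of Flt4 in ECs (-0.12). ECs without cluster 16 and ECs of clusters 2, 8 and 18, both chosen after seeing the data, gave -0.12 and -0.12 for Flt4, and the latter -0.22 for Vegfa. As a mean over cells some EC levels were higher, at 848 CPM for Flt1, 979 for Kdr, 483 for Flt4 and 293 for Nrp1. Those of Vegfa, Vegfb and Pgf were lower, at 19.4, 16.8 and 1.51 CPM. By the same mean Vegfa in DCs was higher, at 238 CPM. The cause of these changes was not tested.

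Same-numbered mice of the 2 groups deviated together in ECs with r of 0.571, 0.434 and 0.016, in monocytes with 0.476, 0.422 and 0.146 and in tumor cells with 0.496, 0.390 and -0.129, and the labels state no pairing. Blocked values stand beside the monocyte results, where every pair exceeded 0.1, and not beside those of ECs or tumor cells. A pairing would hold for the mice in all cell types, so these r cannot justify a block in monocytes alone. That choice was made from these same data. In monocytes control mouse 2 and stress mouse 3, which differ in number, reached 0.187, above the 0.146 of the third pair. With the replicate number as a block, 2 members of 9 were called in tumor cells (Vegfb and Vegfc) against 1, where that fit called 5088 of 18856 genes, and 6 of 162 pairs of a member and a cluster (3.7%) against 0, where it called 5.29% of all gene tests, namely Vegfa in clusters 11, 12 and 20, Nrp1 in clusters 13 and 18 and Kdr in cluster 15. The block changed no call in the sum over all ECs.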

Other observations

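The cells labelled HSCs were too few to test (6 to 50 per mouse) but ranked first or second of 10 cell types in mean Vegfa, Vegfc and Pgf, while Vegfb ranked lower, at 15.9 CPM. Vegfa had 213, 71.8 and 337 CPM in control and 319, 274 and 341 CPM in stress mice. Vegfc had 26.7, 86.2 and 38.9 CPM against 80.3, 60.4 and 96.1 CPM, and Flt1 10.0, 57.5 and 12.97 CPM against 142, 35.5 and 128 CPM. The groups overlapped for these 3 genes. For Vegfb, Kdr and Nrp2 every stress mouse was above every control mouse, at 0 to 7 UMIs of each gene per control mouse, as for 8.4% of the 10455 genes with at least 10 UMIs in these cells. Vegfb had 13.3, 14.4 and 0 CPM in control and 28.3, 24.9 and 14.8 CPM in stress mice.

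In NK/T cells, Vegfa had 18.4, 34.0 and 30.1 CPM in control and 36.4, 38.4 and 40.5 CPM in stress mice, without overlap (log2 fold change 0.45 ± 0.21, edgeR adjusted p = 0.388). It was picked out of 5 members tested there, and the share of all genes without overlap in these cells is not given here. Barcodes outside the annotation, 264 to 549 per library, held Vegfa at 44.1, 64.6 and 45.1 CPM in control and 58.1, 61.1 and 79.1 CPM in stress libraries, and Kdr at 13.2, 9.82 and 7.88 CPM against 9.89, 16.6 and 23.6 CPM, both with overlap.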
